A study of Mus musculus with 8 samples.

Results

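The genes described here are 43 components of the Wnt signalling pathway: ligands, receptors, the proteins that secrete the ligands, beta-catenin and its partners, and the inhibitors that Wnt signals induce. They were chosen by name, as the rows of the count table whose Ensembl identifiers carry those 43 symbols, out of 43432 genes in the table. Of the 43, 37 passed the low-count filter and were tested, among 14906 tested genes in all. The 6 others were Wnt5b, Wnt10a, Wnt10b, Ror2, Lgr5 and Lef1. RNA was sequenced from lung cells of C57BL/6J mice aged 14 weeks, sorted as positive for the epithelial surface protein EpCAM and negative for the leukocyte protein CD45. The wild-type libraries (WT, n = 3) hold the whole of that gate. The reporter libraries hold only the ChiaRed-positive cells within it, from mice heterozygous (C/+, n = 3) or homozygous (C/C, n = 2) for ChiaRed, a reporter of the acidic mammalian chitinase gene Chia1. WT and reporter libraries therefore differ in the sort as well as in genotype, whereas C/C and C/+ share the sort and differ in the copies of the reporter. Chia1 itself stood at 267 to 454 CPM in WT, 223 to 341 CPM in C/+, and 1.45 and 0.365 CPM in C/C.

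Wnt proteins are secreted glycoproteins that receive a lipid from the acyltransferase Porcn, travel to the cell surface with the carrier Wls, and bind Frizzled receptors together with the co-receptors Lrp5 and Lrp6. Binding stops a destruction complex built on Axin from degrading beta-catenin, which then enters the nucleus and acts with TCF/LEF factors on target genes, among them the pathway's own brakes Axin2, Nkd1, Rnf43, Znrf3 and Notum. In the adult lung, Wnt signals are known for maintaining a group of Axin2-positive alveolar type 2 cells that act as progenitors of the alveolar epithelium.

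Total counts were 17057216 to 52319957 per library, so that 3 counts, the floor used for a gene at 0, correspond to 0.0558 to 0.176 CPM (counts brought to a common library total with TMM scaling). Alveolar type 2 transcripts dominated every library: 8 markers of that cell type summed to 176210 to 201598 CPM in WT, 206423 to 214009 CPM in C/+ and 239837 to 243993 CPM in C/C. Most of each sum was 1 gene, Sftpc, at 104356 to 130764 CPM in WT, 137228 to 148570 CPM in C/+ and 163513 to 166725 CPM in C/C. Of the 8, edgeR called 0 in each comparison, with 3, 5 and 5 log2 fold changes above 0. DESeq2 called 1, 0 and 3 (8.48%, 10.8% and 10.1% over all genes), for C/+ against WT, C/C against C/+ and C/C against WT. A list of 6 leukocyte genes summed to 29516 to 39852 CPM, of which Lyz2, a lysozyme gene that alveolar type 2 cells also express, made up 29510.3 to 39847 CPM, while Ptprc, the CD45 gene, was at 0.118 to 1.80 CPM, and none of the 4 tested was called by edgeR or DESeq2 or reached an unadjusted p under 0.05. Mitochondrially encoded genes took 2.90% to 3.31% of counts in WT, 3.93% to 6.40% in C/+ and 4.92% to 6.67% in C/C. Counts of Xist and Y-linked genes showed female libraries for WT 1, C/+ 2, C/+ 3, C/C 1 and C/C 2 and male libraries for the other 3. Whether each library is a different animal is not stated in the labels, so the p-values speak only of the spread among these libraries, which may in part be technical. Values below are means ± SD over the libraries of a group, with the group sizes given above.

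Set side by side per kilobase of exon, 24 of the 43 genes had a mean of at least 1 CPM per kb in WT, 25 did in C/+ and 23 in C/C. By the mean over all 8 libraries, 1 gene stood above the others in each role: Wnt7b among the ligands, Fzd7 among the Frizzled receptors, Ryk among the co-receptors, Lgr4 between the R-spondin receptors, Wls for secretion, Ctnnb1 around the destruction complex, Tcf7l1 among the nuclear factors, Nkd1 among the feedback inhibitors and Sfrp2 among the secreted inhibitors. The place of Sfrp2 rests on C/+ (1.83 CPM per kb, against 0.619 for Wif1), since in WT Wif1 was higher (0.777 against 0.192 CPM per kb). Ctnnb1, which encodes beta-catenin, was far above the rest, at 337 ± 38.2, 289 ± 18.4 and 284 ± 7.22 CPM per kb in WT, C/+ and C/C.

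**Figure D1:**
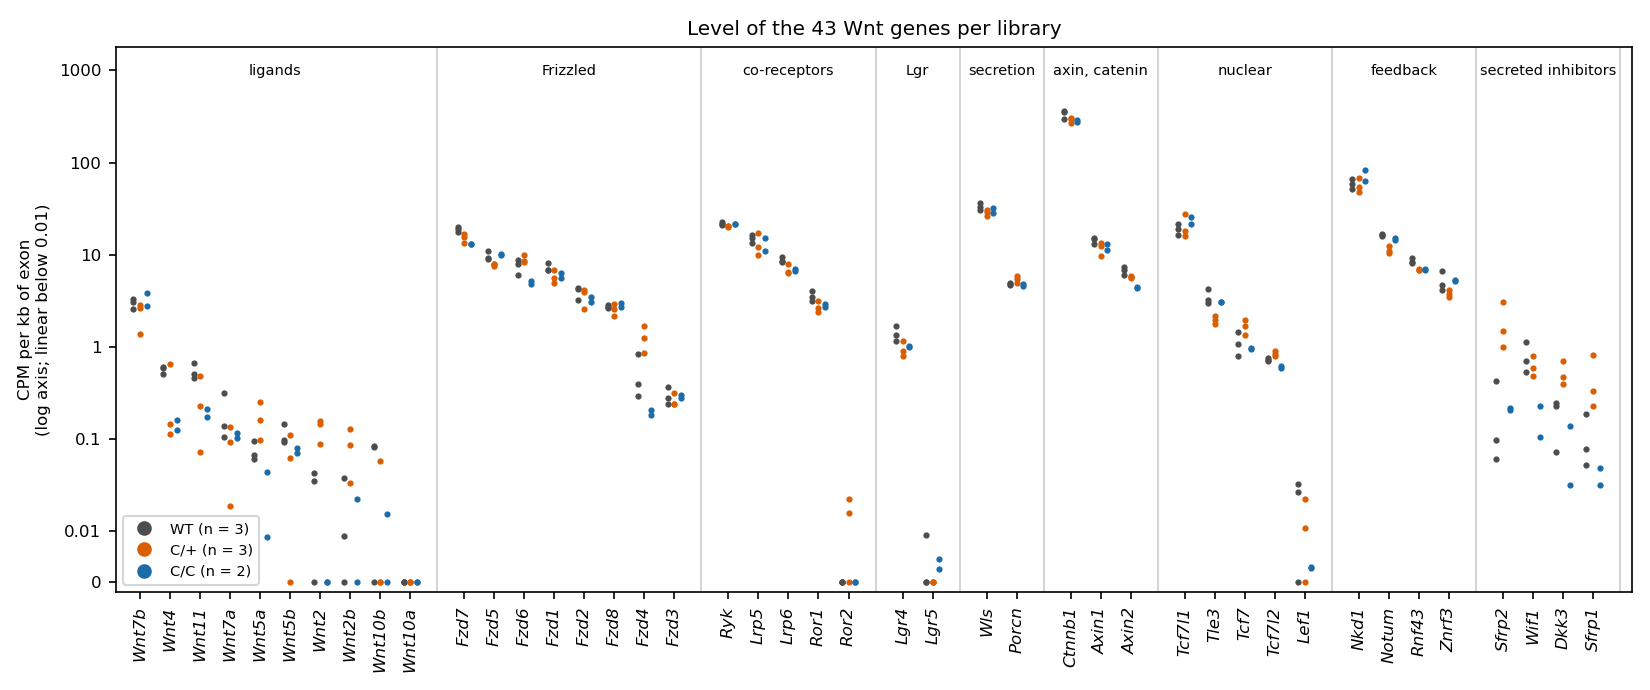
Level of each of the 43 genes in each of the 8 libraries, in CPM per kb of exon (log axis, linear below 0.01), ordered by role, with WT in grey, C/+ in orange and C/C in blue. Ctnnb1 and Nkd1 lie highest, most ligands lie below 1 CPM per kb, and the points of the 3 groups fall close together for most genes, apart from low genes such as Fzd4, Sfrp1 and Sfrp2.

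Between C/+ and WT, Tle3, a co-repressor of TCF/LEF factors, and Notum, a secreted enzyme that inactivates Wnt ligands, were lower in C/+, and the secreted inhibitor Sfrp2 was higher. With the edgeR quasi-likelihood test and a Benjamini-Hochberg adjusted p under 0.05, these 3 were the calls among the 37 tested genes, 1 higher and 2 lower. Over all genes tested, 3.92% were called, 3.42% higher and 0.503% lower. An unadjusted p under 0.05 was reached by 15 of the 37 (20.1% over all genes), and DESeq2 called 8 (8.48% over all genes). The median log2 fold change of the 37 was -0.22, against 0.005 over all genes tested, with 12 above 0 and 25 below.

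Between C/C and C/+, Tle3 was higher in C/C, and 4 genes were lower: the receptors Fzd4 and Fzd6 and the secreted inhibitors Sfrp1 and Sfrp2. These 5 calls stand beside 7.08% of all genes called, 1.75% higher and 5.33% lower. An unadjusted p under 0.05 was reached by 15 of the 37 (20.9% over all genes), and DESeq2 called 11 (10.8% over all genes). The median log2 fold change was -0.01, as it was over all genes, with 17 above 0 and 20 below. Between C/C and WT, 3 genes were lower in C/C: Axin2, the usual transcriptional readout of beta-catenin signalling, the receptor Fzd7, and Wif1, a secreted protein that binds Wnt ligands. None was called higher by edgeR, where 9 of the 37 had an unadjusted p under 0.05, near the share of 22.1% over all genes, and DESeq2 called 6 (10.1% over all genes). Over all genes, 2.98% were called in this comparison, 1.62% higher and 1.36% lower, and the median of the 37 was -0.26 against -0.03 over all genes. In all, 9 of the 37 were called in at least 1 comparison, against 9.72% of all genes tested, and each pair of comparisons shares a group of libraries.

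**Figure D2:**
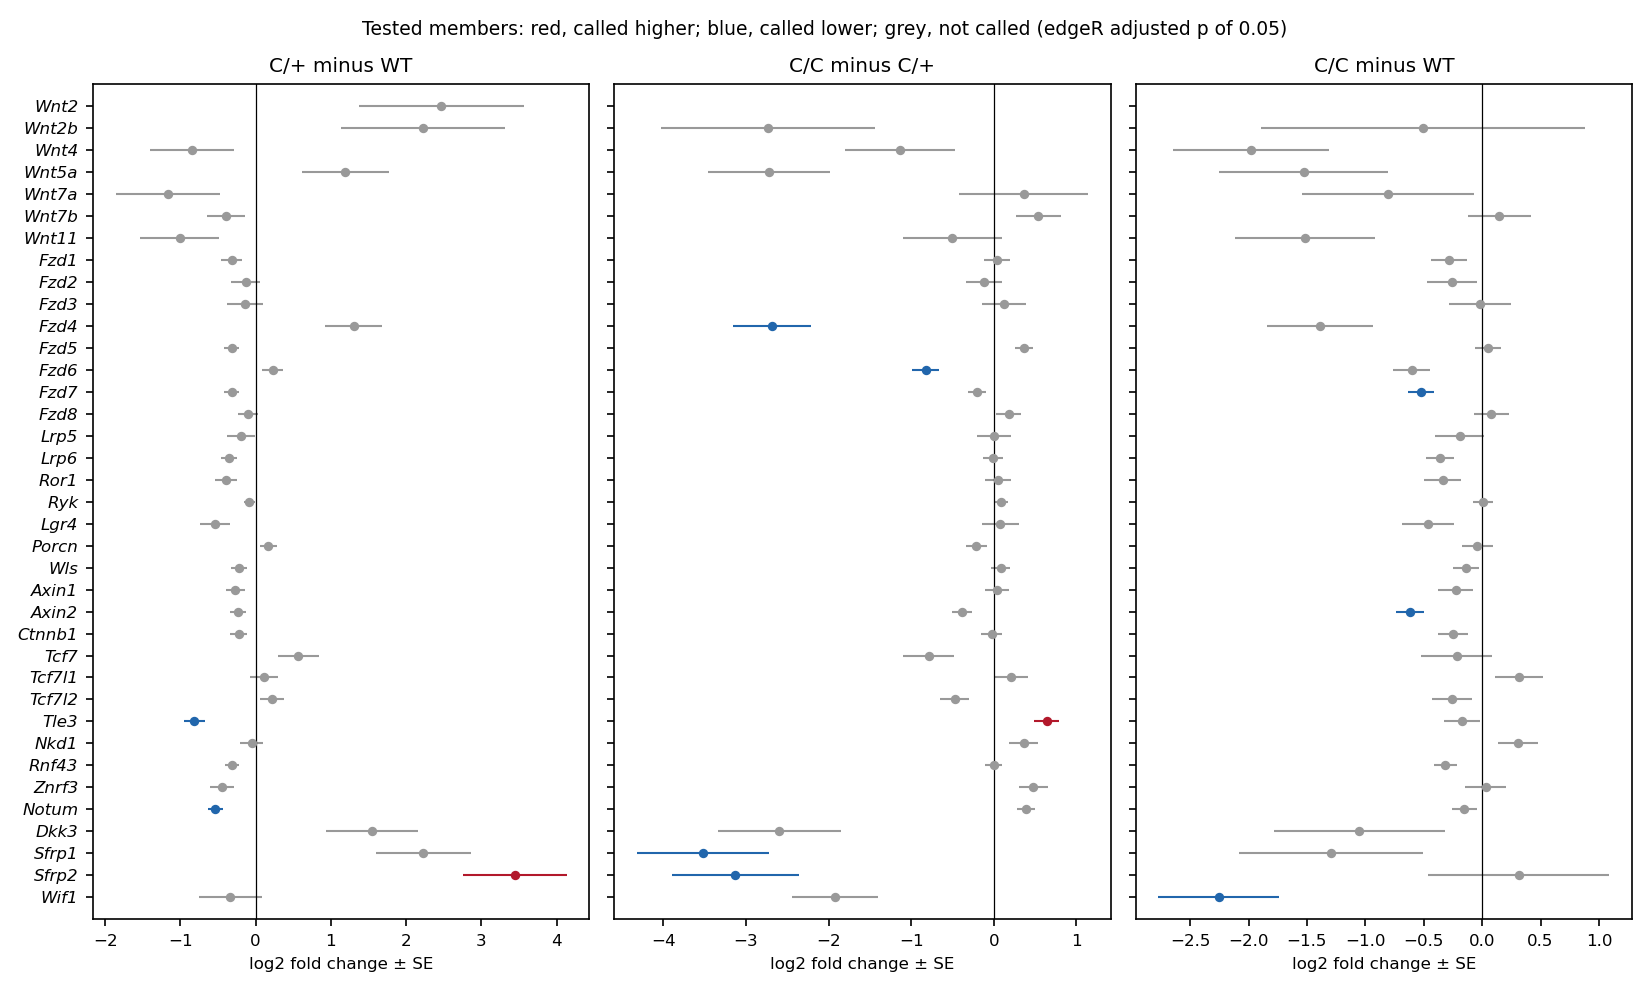
Log2 fold change ± SE (edgeR) of the 37 tested genes in the 3 comparisons, ordered by role, with red for genes called higher, blue for genes called lower and grey for genes not called; the panels have separate horizontal scales. Tle3 lies to the left in the first panel (-0.82) and to the right in the second (0.64), and Wnt2, at 0 counts in both C/C libraries, is left out of the comparisons with C/C.

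Among the 10 ligands, Wnt7b, known as an epithelial Wnt of the lung (chromosome 15, 85535437 to 85582473, minus strand, GRCm38), was the most abundant. Its level was 16.2, 12.6 and 15.1 CPM in WT, 13.8, 12.8 and 6.65 CPM in C/+, and 18.9 and 13.5 CPM in C/C. C/+ 3 was the lowest library and C/C 1 the highest, and the groups overlapped in every comparison. No difference was called: the log2 fold change was -0.39 (SE 0.25, adjusted p = 0.412) for C/+ against WT, 0.54 (SE 0.27, adjusted p = 0.295) for C/C against C/+, and 0.15 (SE 0.27, adjusted p = 0.80) for C/C against WT. The last was -0.11 without C/C 1, so no direction is given for it.

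Wnt7b made up 65.5% ± 4.11 of the summed CPM per kb of the 10 ligands in WT, 67.8% ± 7.19 for C/+ and 85.2% ± 3.78 in C/C, while the sum was 4.55 ± 0.471, 3.36 ± 1.26 and 3.87 ± 0.736 CPM per kb. Wnt4 and Wnt11 came next among the 10. Wnt4 had 94, 45 and 134 counts in WT, 83, 13 and 8 counts in C/+, and 29 and 20 in C/C. Wnt11, a ligand best known for signalling without beta-catenin, had 72, 44 and 149 counts in WT, 61, 20 and 5 counts in C/+, and 31 and 33 in C/C. Both were at their highest CPM in WT or in C/+ 1 and lower in the other C/+ and in the C/C libraries, and neither was called by edgeR (lowest adjusted p over the 3 comparisons 0.118 for Wnt4 and 0.174 for Wnt11). DESeq2 called Wnt4 between C/C and WT (adjusted p = 0.0325).

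The other ligands among the 10 were near the limit of detection. Wnt5a, which usually acts without beta-catenin, had 20, 10 and 40 counts in WT, 60, 27 and 13 counts in C/+, and 3 and 13 in C/C. Its CPM was higher in each C/+ library (0.765 to 1.96) than in any WT library (0.474 to 0.744) or C/C library (0.0688 and 0.339), with no edgeR call (C/C against C/+ log2 fold change -2.72, SE 0.74, adjusted p = 0.0529). DESeq2 called Wnt5a between C/C and C/+ (adjusted p = 0.00513). Wnt2, in the lung a ligand of the mesenchyme, had 6, 7 and 6 counts in C/+, 3, 2 and 0 in WT, and 0 in both C/C libraries, where 0 counts allow up to 0.0688 and 0.0782 CPM. Wnt2b (at most 11 counts a library), Wnt5b (at most 13, with Fbxl14 overlapping it on the opposite strand at 7714 counts over all libraries against 57), Wnt7a (at most 53) and Wnt10b (at most 15) were as sparse, and Wnt10a had 0 counts in every library. Of the 7 tested ligands none was called in any comparison by edgeR. There, 1, 2 and 2 had an unadjusted p under 0.05 in C/+ against WT, C/C against C/+ and C/C against WT, and DESeq2 called 0, 2 and 1. Over all genes, in the same order, 20.1%, 20.9% and 22.1% had such an unadjusted p, and DESeq2 called 8.48%, 10.8% and 10.1%.

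The 8 Frizzled receptors summed to 50.8 ± 2.11 CPM per kb in WT, 45.2 ± 2.32 CPM per kb in C/+ and 40.7 ± 0.671 in C/C. Fzd7 took the largest share in each group (37.2% ± 1.76, 33.6% ± 2.02 and 32.3% ± 0.504), and Fzd5, Fzd6 and Fzd1 followed in an order that differed between groups: Fzd6 (19.5%) was above Fzd5 (17.2%) in C/+, and Fzd1 (14.6%) above Fzd6 (12.2%) in C/C. Fzd2 and Fzd8 were lower, and Fzd3 and Fzd4 were below 1 CPM per kb except for Fzd4 in C/+ (1.25 CPM per kb). Fzd5 stood at 75.5, 63.8 and 61.9 CPM in WT, 51.7, 54.8 and 54.8 CPM in C/+, and 70.8 and 68.2 CPM in C/C. C/+ lay below both other groups without an edgeR call (adjusted p = 0.103 against WT and 0.0728 against C/C). DESeq2 called both differences (adjusted p = 0.0479 and 0.0262).

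Fzd7 (ENSMUSG00000041075, chromosome 1, 59482424 to 59486955, plus strand) stood at 80.5, 85.5 and 91.3 CPM in WT, 70.5, 61.1 and 74.9 CPM in C/+, and 59.7 and 59.6 CPM in C/C. Every WT library lay above every C/+ library, and every C/+ library above both C/C libraries. C/C was lower than WT (log2 fold change -0.52, SE 0.11, adjusted p = 0.0392), while C/+ against WT (-0.32, adjusted p = 0.105) and C/C against C/+ (-0.21, adjusted p = 0.336) were not called. The call was lost without C/C 1, C/C 2, WT 2 or WT 3 (adjusted p = 0.0861 to 0.28), and it was kept with sex in the model (adjusted p = 0.0457).

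Fzd6 (ENSMUSG00000022297, chromosome 15, 39006034 to 39038188, plus strand) stood at 29.1, 42.0 and 38.3 CPM in WT, 39.7, 40.6 and 47.5 CPM in C/+, and 24.9 and 23.1 CPM in C/C. Both C/C libraries lay below the other 6, and WT and C/+ overlapped. The fall from C/+ to C/C was called (log2 fold change -0.83, SE 0.16, adjusted p = 0.0113), and that from WT to C/C was not by edgeR (-0.60, SE 0.16, adjusted p = 0.0682). DESeq2 called the fall from WT to C/C (adjusted p = 0.0135). Without C/C 1 or C/C 2 the edgeR call between C/C and C/+ was lost (log2 fold change -0.88 and -0.77).

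Fzd4 (ENSMUSG00000049791, chromosome 7, 89404355 to 89413134, plus strand), a receptor well known in endothelial cells, stood at 5.61, 2.66 and 1.95 CPM in WT, 8.36, 11.1 and 5.70 CPM in C/+, and 1.38 and 1.23 CPM in C/C. The groups did not overlap, with C/+ highest and C/C lowest. It fell from C/+ to C/C (log2 fold change -2.69, SE 0.47, adjusted p = 0.00702), a call lost without C/C 1 or C/C 2 (log2 fold change -2.77 and -2.61). By edgeR, the differences of C/+ (1.30, SE 0.38, adjusted p = 0.0885) and C/C (-1.39, SE 0.46, adjusted p = 0.112) from WT were not called. DESeq2 called both differences from WT (adjusted p = 0.0121 and 0.0249), as did edgeR with sex in the model.

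The summed level of 10 endothelial markers moved with Fzd4: it was 257, 123 and 67.5 CPM in WT, 848, 864 and 501 CPM in C/+, and 58.9 and 52.6 CPM in C/C. The order of the libraries is the same for both within WT and within C/+. Each of the 10 endothelial markers was called in both comparisons with C/+, higher there than in WT and higher there than in C/C, and none of them was at 0 in every library. Their part in the Fzd4 values was not tested, and in bulk libraries fewer cells of a type cannot be told apart from less RNA per cell.

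Among the co-receptors, Ryk, a receptor with a kinase-like domain, was the highest per kilobase and nearly level: 96.2, 94.0 and 102 CPM in WT, 92.4, 91.2 and 91.9 CPM in C/+, and 96.9 and 98.5 CPM in C/C. Lrp5 and Lrp6 had 14.9 and 8.72 CPM per kb in WT, 13.0 and 6.85 CPM per kb in C/+, and 13.0 and 6.81 in C/C, and Ror1, a receptor for Wnt5a, had 3.54, 2.70 and 2.80 CPM per kb. Ror2 had 2 counts in each of C/+ 1 and C/+ 2 and 0 in the other 6 libraries. The 4 tested co-receptors gave 0 edgeR calls in each comparison, with 2, 0 and 1 at an unadjusted p under 0.05 and 1, 0 and 0 called by DESeq2, in the order C/+ against WT, C/C against C/+ and C/C against WT. The shares over all genes were 20.1%, 20.9% and 22.1% at that unadjusted p and 8.48%, 10.8% and 10.1% by DESeq2.

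Lgr4 and Lgr5 are receptors for R-spondins, which protect Frizzled receptors from removal. Lgr4 stood at 9.75, 6.78 and 7.85 CPM in WT, 6.76, 5.27 and 4.65 CPM in C/+, and 5.94 and 5.86 CPM in C/C. WT lay above C/+ and C/C, but WT 2 and C/+ 1 were almost level, and Lgr4 was not called (lowest edgeR adjusted p 0.168). Lgr5, the stem cell marker of the gut, had 5 counts in WT 3, 2 and 1 in C/C, and 0 in the other 5 libraries.

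The ligand carrier Wls was the more abundant secretion gene, at 271, 289 and 319 CPM in WT, 266, 254 and 233 CPM in C/+, and 281 and 252 CPM in C/C, with C/+ slightly below WT and C/C across both. Porcn, the acyltransferase, held 13.6 to 17.6 CPM across the 8 libraries. Neither was called by edgeR or by DESeq2, and neither reached an unadjusted p under 0.05 in any comparison.

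Axin2 (ENSMUSG00000000142, chromosome 11, 108920349 to 108950783, plus strand) encodes a scaffold of the destruction complex and is itself induced by beta-catenin. It stood at 40.4, 37.5 and 32.6 CPM in WT, 32.3, 31.3 and 30.4 CPM in C/+, and 24.2 and 23.8 CPM in C/C. The groups did not overlap, although WT 3 and C/+ 1 were nearly level, and both C/C libraries lay well below the rest. Axin2 fell from WT to C/C (log2 fold change -0.62, SE 0.12, adjusted p = 0.0328). The smaller differences of C/C from C/+ (-0.38, SE 0.12, adjusted p = 0.0869) and of C/+ from WT (-0.23, SE 0.11, adjusted p = 0.252) were not called.

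The Axin2 call between C/C and WT was lost without C/C 1, C/C 2, C/+ 2 or WT 2 (adjusted p = 0.0527 to 0.252) and kept with sex in the model (adjusted p = 0.0165). Without WT 1, the difference between C/C and C/+ was called (-0.40, adjusted p = 0.0463). The summed level of 10 immediate early genes, which respond to stress and to dissociation, was 2641 to 8110 CPM in WT, 3473 to 5919 CPM in C/+, and 14440 and 11129 CPM in C/C, where 6 of the 10 were called higher against C/+ and 1 against WT. Their part in the values of Axin2 and of the other genes that differed in C/C was not tested.

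Neither beta-catenin nor Axin1 was called in any comparison. Ctnnb1 stood at 1524, 1877 and 1856 CPM in WT, 1390, 1538 and 1568 CPM in C/+, and 1500.2 and 1447 CPM in C/C. WT 1 lay within the C/+ range and the C/C libraries below all of WT (lowest edgeR adjusted p 0.27). Axin1, the scaffold that is not a target of the pathway, was at 14.2, 11.8 and 12.1 CPM per kb in WT, C/+ and C/C, with a log2 fold change of -0.27 for C/+ against WT (adjusted p = 0.284).

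The promoters of Axin2 and Tle3, whose levels differed between groups, and of Sp5, a beta-catenin target outside the 43 genes that fell from WT to C/C like Axin2, are shown as the 250 bases before the RefSeq transcript start on GRCm38.p6, 5′ to 3′ on the plus strand. Capitals mark the TCF/LEF motif CTTTGAT, searched for on both strands (its reverse complement is ATCAAAG) in windows from 250 bases before to 50 after the start.
Axin2: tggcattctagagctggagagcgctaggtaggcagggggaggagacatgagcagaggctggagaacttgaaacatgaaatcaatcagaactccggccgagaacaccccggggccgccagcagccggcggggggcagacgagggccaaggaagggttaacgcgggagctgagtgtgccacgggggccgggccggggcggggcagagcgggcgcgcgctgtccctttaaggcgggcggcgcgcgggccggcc
Tle3: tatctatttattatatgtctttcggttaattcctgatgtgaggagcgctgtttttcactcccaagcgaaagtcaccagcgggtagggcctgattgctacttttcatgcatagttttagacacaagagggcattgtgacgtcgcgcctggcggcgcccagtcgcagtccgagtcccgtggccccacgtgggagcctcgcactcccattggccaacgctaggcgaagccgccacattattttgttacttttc
Sp5: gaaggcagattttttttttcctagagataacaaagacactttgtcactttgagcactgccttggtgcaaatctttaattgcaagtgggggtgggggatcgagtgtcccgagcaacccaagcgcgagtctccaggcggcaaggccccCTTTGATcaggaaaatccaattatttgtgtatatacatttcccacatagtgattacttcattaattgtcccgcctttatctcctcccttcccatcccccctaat
These lie at chr11:108920099-108920348, chr9:61372116-61372365 and chr2:70474673-70474922. The Sp5 motif starts 104 bases before the transcript start, and neither of the other windows holds these letters. The Axin2 stretch is rich in G and C (69.2%, with 24 CpG), against 52.4% and 17 CpG for Tle3 and 46.0% and 6 CpG for Sp5.

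RefSeq windows were matched for 27 of the 43 genes (37 windows). Of these, 2 windows (5.41%), of Wnt11 and Wnt5b, held the motif, against 1225 of 32851 windows over all genes (3.73%). Among 65 other Wnt pathway genes, 47 had windows, and 2 of 60 (3.33%) held it, those of Sp5 and Tnfrsf19.

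Tcf7l1 was the main TCF/LEF factor, with 91.0% ± 1.76 of the family's CPM per kb in WT, 88.5% ± 3.59 for C/+ and 93.7% ± 0.876 in C/C. This factor acts largely as a repressor until beta-catenin displaces it. It stood at 75.1, 83.3 and 64.5 CPM in WT, 62.9, 70.7 and 107 CPM in C/+, and 83.8 and 101.2 CPM in C/C, with C/+ 3 the highest library and no call (lowest adjusted p 0.395). Tcf7 (0.953 to 1.64 CPM per kb over the group means) and Tcf7l2 (0.604 to 0.838) were lower, and Lef1 had 0 to 9 counts a library.

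Tle3 (ENSMUSG00000032280, chromosome 9, 61372366 to 61418497, plus strand) stood at 48.7, 37.1 and 34.5 CPM in WT, 22.9, 24.9 and 20.5 CPM in C/+, and 35.4 and 35.7 CPM in C/C. All 3 C/+ libraries lay below the other 5, and C/C fell within the WT range. The fall from WT to C/+ (log2 fold change -0.82, SE 0.14, adjusted p = 0.0161) and the rise from C/+ to C/C (0.64, SE 0.15, adjusted p = 0.0315) were both called, and C/C against WT was not (-0.17, SE 0.15, adjusted p = 0.553). The first call was lost without C/+ 1 (adjusted p = 0.0649). The second was lost without any 1 of the C/C or C/+ libraries (adjusted p = 0.0625 to 0.193), with log2 fold changes of 0.57 to 0.70, and was kept in the female libraries alone (0.65, adjusted p = 0.0367).

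Within the Tle family Tle3 was a minor member. Its share of the summed CPM per kb of Tle1 to Tle4 was 5.96% ± 0.575 in WT, 3.62% ± 0.682 for C/+ and 4.66% ± 0.490 in C/C, against 78.9% ± 1.76, 80.6% ± 3.47 and 78.6% ± 2.75 for Tle2. The share of Tle3 in C/C lay between those of the other groups, while its CPM in C/C lay within WT.

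**Figure D3:**
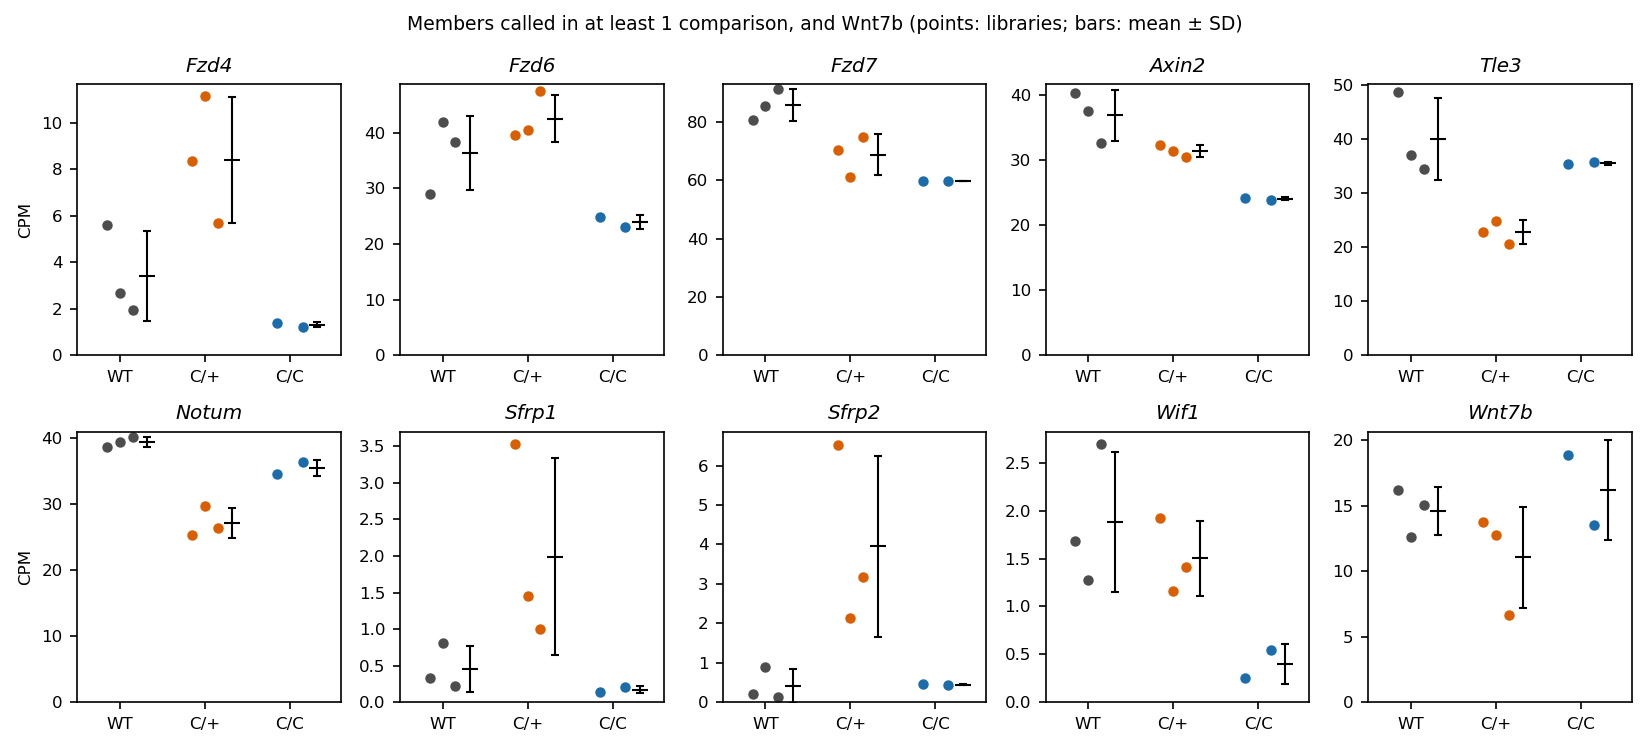
CPM in each library (points) with the group mean and SD (bars) for the 9 genes called in at least 1 comparison and for Wnt7b, with WT in grey, C/+ in orange and C/C in blue and vertical axes from 0. Axin2 and Fzd7 step down from WT to C/+ to C/C, Tle3 and Notum are lowest in C/+, and Fzd4, Sfrp1 and Sfrp2 are highest in C/+.

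Of the 4 feedback inhibitors, Nkd1, which binds Dishevelled, was the highest per kilobase. It stood at 302, 266 and 236 CPM in WT, 218, 246 and 312 CPM in C/+, and 290.2 and 374 CPM in C/C, with C/C 2 the highest library, overlap between all groups and no call (lowest adjusted p 0.269). Rnf43 and Znrf3, ubiquitin ligases that remove Frizzled receptors from the surface, were not called by edgeR either, though DESeq2 called Rnf43 between C/+ and WT (adjusted p = 0.0318). Rnf43 was at 52.9 to 60.6 CPM in WT, 44.6 to 45.9 in C/+ and 44.5 to 45.5 in C/C, every WT library above the other 5 (C/+ against WT log2 fold change -0.31, adjusted p = 0.0832). Znrf3 was at 32.3 to 51.7 CPM in WT, 27.3 to 32.2 in C/+ and 40.7 and 41.9 in C/C (C/C against C/+ 0.48, adjusted p = 0.147).

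Notum (ENSMUSG00000042988, chromosome 11, 120653788 to 120661175, minus strand) stood at 38.5, 39.4 and 40.1 CPM in WT, 25.3, 29.7 and 26.3 CPM in C/+, and 34.5 and 36.3 CPM in C/C. As with Tle3, the C/+ libraries were the lowest, here with no overlap between any groups. The fall from WT to C/+ was called (log2 fold change -0.54, SE 0.10, adjusted p = 0.0187). By edgeR, the difference between C/C and C/+ was not (0.39, SE 0.11, adjusted p = 0.0616), nor was that between C/C and WT (-0.15, SE 0.11, adjusted p = 0.451). DESeq2 called the difference between C/C and C/+ (adjusted p = 0.0285). The edgeR call between C/+ and WT was lost without C/+ 1, WT 2 or WT 3 (adjusted p = 0.0695 to 0.0777).

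The secreted inhibitors were all scarce, at or under 1.83 CPM per kb in every group mean. Sfrp1 and Sfrp2 encode Frizzled-related proteins that bind Wnt ligands outside the cell and are known as products of fibroblasts. Sfrp2 (ENSMUSG00000027996, chromosome 3, 83766321 to 83774316, plus strand) stood at 0.207, 0.901 and 0.130 CPM in WT, 6.53, 2.15 and 3.18 CPM in C/+, and 0.459 and 0.443 CPM in C/C, which rest on 8, 19 and 7 counts, 200, 46 and 54 counts, and 20 and 17 counts. Every C/+ library lay above the other 5, and C/C fell within the WT range. Sfrp2 rose from WT to C/+ (log2 fold change 3.44, SE 0.69, adjusted p = 0.0252) and fell from C/+ to C/C (-3.13, SE 0.77, adjusted p = 0.035). The first call was lost without C/+ 1, WT 1 or WT 3 (adjusted p = 0.0568 to 0.103) and the second without C/+ 1, C/C 1 or C/C 2 (adjusted p = 0.116 to 0.253). Without C/+ 1, whose level was the highest, the log2 fold changes were 2.84 and -2.55.

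Sfrp1 (ENSMUSG00000031548, chromosome 8, 23411502 to 23449632, plus strand) had 13, 17 and 12 counts in WT, 108, 31 and 17 counts in C/+, and 6 and 8 in C/C. That is 0.336, 0.806 and 0.223 CPM in WT, 3.53, 1.45 and 1.0 CPM in C/+, and 0.138 and 0.209 CPM in C/C, with C/+ 1 far above the others and C/+ above both other groups. The fall from C/+ to C/C was called (log2 fold change -3.52, SE 0.80, adjusted p = 0.0242) and was lost without C/+ 1 (-2.81, adjusted p = 0.0792), C/C 1 or C/C 2 (adjusted p = 0.229 and 0.145). The difference between C/+ and WT was not called by edgeR (2.23, SE 0.63, adjusted p = 0.0819), while DESeq2 called it (adjusted p = 0.0151). Dkk3, a Dickkopf-related protein, had 71, 28 and 27 counts in C/+, 32, 16 and 13 in WT, and 20 and 4 in C/C, without a call by edgeR (C/C against C/+ -2.60, adjusted p = 0.0668). DESeq2 called Dkk3 between C/C and C/+ (adjusted p = 0.00612).

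Markers of cell types other than the epithelium were high in the same libraries as Sfrp1 and Sfrp2. The sum of 9 fibroblast markers was 16.1 to 40.1 CPM in WT, 80.2 to 217 CPM in C/+ and 14.2 to 17.4 CPM in C/C, with 5 of 8 tested markers called higher in C/+ than in WT and 6 of 8 lower in C/C than in C/+. The sum of 7 mesothelial markers was 9.31 to 32.1, 69.4 to 206, and 7.17 to 8.28 CPM, with 6 of 7 called higher and 7 of 7 called lower. C/+ 1 was the highest library for both sums, as for Sfrp1 and Sfrp2, and WT 2 the highest WT library for both genes and both sums. None of these markers was at 0 in every library.

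Smooth muscle markers summed to 1.69 to 3.23 CPM in WT, 5.0 to 17.5 CPM in C/+ and 0.918 to 2.42 CPM in C/C (1 of 5 tested called higher in C/+ than in WT, 2 of 5 lower in C/C than in C/+). Epithelial club cell markers were likewise highest in C/+, with a sum of 5129 to 9530 CPM there against 460 to 1111 CPM in WT and 491 to 720.2 CPM in C/C (6 of 7 called higher, 6 of 7 called lower). By contrast, the sums of 2 other epithelial lists overlapped between all groups, although some of their genes were called. In WT, C/+ and C/C, 7 ciliated cell markers summed to 155 to 238, 134 to 295 and 170 to 189 CPM. For 8 alveolar type 1 markers the sums were 2065 to 2757, 1804 to 2707 and 2135 to 2462 CPM. In C/+ against WT, C/C against C/+ and C/C against WT, edgeR called 0, 0 and 1 ciliated markers, the last lower. For alveolar type 1 markers it called 1 lower, then 1 higher and 1 lower, then 1 lower (3.92%, 7.08% and 2.98% over all genes). DESeq2 called 0, 3 and 3 ciliated and 2, 2 and 3 alveolar type 1 markers (8.48%, 10.8% and 10.1% over all genes). Median log2 fold changes were -0.07, -1.12 and -1.18 for ciliated and -0.29, -0.02 and -0.40 for alveolar type 1 markers. The part of these cell types in the Wnt genes was not tested.

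**Figure D4:**
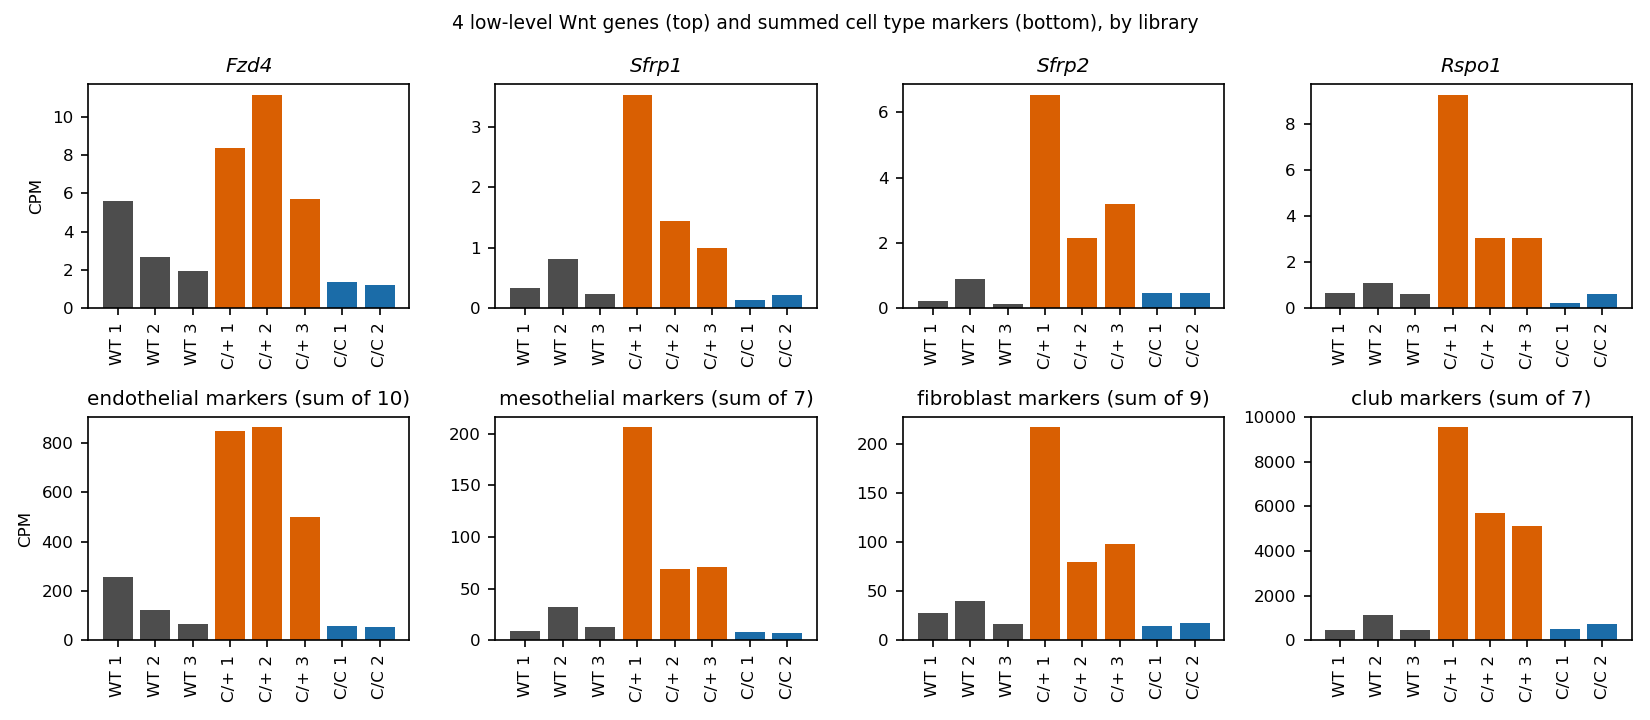
CPM per library of Fzd4, Sfrp1, Sfrp2 and Rspo1 (top row) and summed CPM of endothelial, mesothelial, fibroblast and club cell markers (bottom row), with 1 bar a library, WT in grey, C/+ in orange, C/C in blue and axes from 0. All 8 panels are highest in C/+ libraries, and C/+ 1 has the tallest bar for Sfrp1, Sfrp2, Rspo1 and the mesothelial, fibroblast and club sums, while C/+ 2 has it for Fzd4 and the endothelial sum.

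Wif1 (ENSMUSG00000020218, chromosome 10, 121033960 to 121100650, plus strand) did not share that pattern. It had 65, 27 and 145 counts in WT (1.68, 1.28 and 2.70 CPM), 59, 25 and 24 in C/+ (1.93, 1.17 and 1.41 CPM), and 11 and 21 in C/C (0.252 and 0.547 CPM). WT and C/+ overlapped and both C/C libraries lay below them. C/C was lower than WT (log2 fold change -2.25, SE 0.52, adjusted p = 0.048), a call near the threshold that was lost without 6 of the 8 libraries in turn, all but C/+ 1 and C/+ 3 (adjusted p = 0.0577 to 0.332, log2 fold change -1.79 to -2.90). It was also lost with sex in the model (adjusted p = 0.0546) and in a fit of WT and C/C alone (adjusted p = 0.0514). The difference from C/+ was not called by edgeR (-1.92, SE 0.52, adjusted p = 0.0535), while DESeq2 called it (adjusted p = 0.00981).

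A list of 65 other Wnt pathway genes gave 44 tested genes. Between C/+ and WT, 1 was called higher (Rspo1) and 0 lower, with 8 at an unadjusted p under 0.05 by edgeR and 5 called by DESeq2. Between C/C and C/+, 2 were called lower (Rspo1 and Wnt3a) and 0 higher, with 15 and 8. Between C/C and WT, 1 was called higher (Tle1) and 3 lower (Wnt3a, Kremen1 and Sp5), with 16 and 9. Over all genes the shares at an unadjusted p under 0.05 were 20.1%, 20.9% and 22.1%, and DESeq2 called 8.48%, 10.8% and 10.1%, in the same order of comparisons, so that the 8 of 44 between C/+ and WT were near the background. The medians of the 44 log2 fold changes were -0.08, 0.03 and -0.05.

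Wnt3a, a classic activator of beta-catenin, stood at 12.5, 10.3 and 9.30 CPM in WT, 3.07, 6.76 and 1.24 CPM in C/+, and 0.207 and 0.235 CPM in C/C, with no overlap between groups. It fell from C/+ to C/C (log2 fold change -4.05, SE 0.66, adjusted p = 0.00525) and from WT to C/C (-5.58, SE 0.67, adjusted p = 0.00392), while C/+ against WT was not called (-1.52, adjusted p = 0.085). Without C/C 1 or C/C 2 neither call passed (adjusted p = 0.0663 to 0.0927). Over all 19 Wnt ligands Wnt3a held 40.9% ± 4.18 of the summed CPM per kb in WT, 22.0% ± 11.6 for C/+ and 1.86% ± 0.448 in C/C, and Wnt7b held 31.5% ± 1.62, 40.8% ± 3.02 and 75.0% ± 6.15. Wnt9a, also outside the 43 genes, held 10.8% ± 0.326, 16.7% ± 2.59 and 9.63% ± 3.38, above Wnt4 and Wnt11 in each group mean.

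Sp5 stood at 14.2, 22.5 and 19.1 CPM in WT, 17.3, 14.4 and 12.1 CPM in C/+, and 9.16 and 8.52 CPM in C/C. Both C/C libraries lay below the other 6, as for Axin2, and WT and C/+ overlapped. C/C was lower than WT (log2 fold change -1.07, SE 0.21, adjusted p = 0.0362) and not called against C/+ (-0.73, SE 0.21, adjusted p = 0.0736). The call was lost without C/C 1, C/C 2, C/+ 2, WT 2 or WT 3 (adjusted p = 0.0567 to 0.25).

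Rspo1, an R-spondin ligand of the Lgr receptors that also stands on the mesothelial marker list, was at 0.646, 1.09 and 0.614 CPM in WT, 9.27, 3.03 and 3.06 CPM in C/+, and 0.229 and 0.626 CPM in C/C. It was higher in every C/+ library than in the other 5. It rose from WT to C/+ (log2 fold change 2.76, SE 0.54, adjusted p = 0.0238) and fell from C/+ to C/C (-3.60, SE 0.66, adjusted p = 0.00871). The first call was lost without C/+ 1 (1.99) or without any 1 WT library (adjusted p = 0.0522 to 0.0898), and the second without C/C 1 (adjusted p = 0.121). Kremen1, a receptor for Dickkopf inhibitors, fell from WT to C/C (-0.66, SE 0.15, adjusted p = 0.0428; lost without C/C 1, C/C 2, C/+ 2, WT 2 or WT 3, adjusted p = 0.0529 to 0.296), and the co-repressor Tle1 rose (0.44, SE 0.10, adjusted p = 0.0437; lost without any library but C/+ 3, adjusted p = 0.0522 to 0.271).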

How the data were processed

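The deposited table holds whole-number read counts per gene, not normalised, for 43432 mouse Ensembl identifiers in 8 libraries made with a stranded mRNA kit, per the labels' protocols. The submitters' processing notes name STAR 2.4.2a, DESeq2 and the human build GRCh38 without roles; the counting tool, strand setting and annotation are each not given in the sources used here. Genes on the opposite strand overlap the spans of several members, introns included, and overlap of exons was not checked. Reads from any shared exons could not be told apart without the strand setting. The overlapping genes at Notum, Fzd6 and Wnt7b had far fewer counts than these genes, and Fbxl14 had more than Wnt5b. Every column was used. Symbols (42462 matched, 970 not), exon lengths and positions came from GENCODE M21 on GRCm38, and promoters from RefSeq.

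A single edgeR 4.0.16 quasi-likelihood model (R 4.3.3, filterByExpr, TMM) with 1 mean for each group took in all libraries. It was checked on simulated data, with changes made only in genes with many counts. These changes were larger than those of Axin2 and Fzd7. The check therefore does not cover calls in genes with few counts, such as Sfrp1, Sfrp2 and Wif1. The 3 comparisons were two-sided, with Benjamini-Hochberg adjustment over 14906 genes and calls at 0.05. CPM are TMM-scaled, and CPM per kb divides them by the union of exons. DESeq2 1.42.0 adjusted p left as NA were not counted; 2 members had one between C/C and WT. The genes and lists were chosen with earlier results of these data known. Per-library values were given for Axin2, Wnt7b, Tle3, each called gene and the highest gene per kb in each role, and other pathway genes were named if called. Dkk3, Fzd5, Wnt4, Wnt5a, Wnt9a, Wnt11, Rnf43 and Znrf3 were added after their values were seen. Libraries of 1 group differed beyond counting noise (a chi-square statistic of 12.2 to 73.5 a gene). Alternatives were other scaling, tests, filters, covariates, a replicate block and leaving out each library.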

Additional observations from a re-analysis of the deposited data

How the results depend on the processing

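The number of the 37 genes called was 3 for C/+ against WT, 5 for C/C against C/+ and 3 for C/C against WT. It became 8, 11 and 6 with the DESeq2 Wald test, 7, 9 and 6 without the low-count filter, and 9, 5 and 4 with sex as a covariate, and leaving out 1 library gave 0 to 4, 0 to 8 and 0 to 4. The count was 0 without C/+ 1 in the first comparison, without C/C 1 or C/C 2 in the second, and without C/C 1, C/C 2 or WT 2 in the third; it was 1 without WT 3 in the first and without C/+ 2 or WT 3 in the third, and 2 without C/+ 1 and 8 without WT 1 in the second. Removing a C/C library leaves 1, whose spread is then assumed to be that of the other groups.

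Over all genes, calls of 585, 1056 and 444 became 1263, 1609 and 1476 with DESeq2, 1299, 1614 and 1456 without the filter, and 103 to 729, 185 to 1308 and 30 to 782 without 1 library. Sex as a covariate gave 1700 and 1348 for the comparisons with WT, and fitting the compared groups alone gave 356 for C/+ against WT. DESeq2 size factors kept each count within 1.5 times.

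The labels do not say whether replicate numbers pair libraries. Deviations of same-numbered libraries from their group means had correlations of -0.21 to 0.09. With groups of 3 or 2 libraries, these cannot settle whether the numbers pair libraries. With a replicate block, 3, 3 and 0 of the genes were called, and 457, 799 and 176 over all genes. Calls of Tle3 and Sfrp2 between C/C and C/+ and of Fzd7, Axin2 and Wif1 between C/C and WT were not made under the block, nor were those of Kremen1, Tle1 and Sp5 between C/C and WT, and Wnt7b between C/C and WT reversed to -0.014 under it and ranged from -0.11 (without C/C 1) to 0.37 with 1 library left out. Tle1 was also not called in WT and C/C alone, nor Kremen1 with sex as a covariate. The causes were not tested. Over single genes, settings other than leaving out a library left 140 results on their side of the threshold, lost 12 calls and reversed 1 uncalled value. These results include uncalled comparisons of Axin2, Wnt7b and Tle3. Leaving out a library lost calls more often, as given above for each called gene. Genes with few counts a library, such as the minor ligands, are limited by counting error.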
